A study of Mus musculus with 4 samples.

Results

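Genes of fatty acid oxidation and ketone body use were followed across kidneys of diabetic and nondiabetic mice with or without removal of a kidney. The group is a list of 40 genes chosen by name, with earlier results of these data known. Shares of members set beside shares of all expressed genes below are therefore description and not independent of these data. The array held probe sets that name a single gene for 38 of them, and Acsl1 and Ucp2 were not analysed here. These 38 genes have 73 probe sets of their own among 45101 on the array, of which 68 reached the expression filter described below, and all 38 genes have at least 1 such probe set among 11206 expressed genes. A further 3 probe sets are annotated to a pair of paralogs, Acaa1a with Acaa1b or Acot1 with Acot2, and were kept apart.

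All mice were females of the FVB/NJ strain, taken at 4.5 months of age, 10 weeks after an operation at 2 months. The 4 groups were OVE26 transgenic diabetic mice with uninephrectomy, nondiabetic littermates with uninephrectomy, OVE26 transgenic diabetic mice with sham surgery and nondiabetic littermates with sham surgery. OVE26 mice carry a calmodulin transgene under an insulin promoter, which acts in pancreatic beta cells, so diabetes here is of the insulin-deficient kind. Each group is 1 array of kidney RNA pooled from 4 mice, so no value below measures the spread between animals, and having 4 arrays in all bounds how precise any of them can be.

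The kidney, above all its proximal tubule, takes up fatty acids and burns them for energy. Long fatty acids are bound in the cell, joined to coenzyme A, carried into mitochondria as carnitine esters and shortened step by step by beta-oxidation, whose electrons pass through the electron transfer flavoprotein to the respiratory chain. Peroxisomes shorten very long and branched chains. PPARA, a nuclear receptor activated by fatty acids, drives many of these genes in liver and kidney, and its partner coactivator PGC-1alpha, encoded by Ppargc1a, raises mitochondrial capacity. Ketone bodies are burned in peripheral tissue through BDH1 and OXCT1.

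PPAR receptors bind with RXR to pairs of hexamers spaced by a single base, and the promoters of the RefSeq table (GRCm38.p6) were searched for this letter pattern in the 250 bases before the gene start. The table held 37 windows for 34 of the 40 members, and Angptl4, Crat, Decr1, Hsd17b4, Acaa2 and Vnn1 were not among them. The promoters below are examples picked from the members in the table. Bdh1, the member that fell with uninephrectomy, is also in the table and is not shown. Fabp1 is the member with a paired match, while Pdk4 and Acot2 are members that rose with diabetes. Capitals mark matches on either strand to the hexamer AGGNCA repeated after any single base (the paired pattern) or to the half-site AGGTCA alone. The Fabp1 window is chr6:71199629-71199878 on the plus strand, the Pdk4 window is chr6:5496279-5496528 on the minus strand and the Acot2 window is chr12:83987611-83987860 on the plus strand.

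Fabp1: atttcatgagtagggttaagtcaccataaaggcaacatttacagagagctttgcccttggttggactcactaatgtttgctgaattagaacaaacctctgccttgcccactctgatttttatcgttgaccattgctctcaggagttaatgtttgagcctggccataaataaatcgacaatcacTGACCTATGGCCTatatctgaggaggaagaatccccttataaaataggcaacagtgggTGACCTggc

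Pdk4: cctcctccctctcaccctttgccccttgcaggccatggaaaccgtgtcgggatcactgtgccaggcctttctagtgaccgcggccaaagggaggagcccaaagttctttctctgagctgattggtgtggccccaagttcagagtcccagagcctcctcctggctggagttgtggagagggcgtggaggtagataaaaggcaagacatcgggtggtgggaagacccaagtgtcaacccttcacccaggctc

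Acot2: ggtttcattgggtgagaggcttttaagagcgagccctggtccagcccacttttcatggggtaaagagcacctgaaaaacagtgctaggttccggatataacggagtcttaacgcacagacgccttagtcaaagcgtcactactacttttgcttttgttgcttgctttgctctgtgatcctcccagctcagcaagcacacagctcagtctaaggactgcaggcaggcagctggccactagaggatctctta

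The paired pattern lay at positions -67 to -55 of Fabp1, counted back from the gene start, and its first hexamer is also a half-site match. It was found in 0.338% of all 32851 windows of the table and in 1 of the 37 member windows. The half-site was present in 14.0% of all windows and in 7 of the 37, those of Acadm, Plin2, Cd36, Fabp1, Acadvl, Plin5 and Cpt1a. A match in letters is not a measured binding site, and its absence from the Pdk4 and Acot2 windows concerns these 250 bases alone.

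Array values are linear signals, compared on the log2(signal + 26.4) scale, where the offset shrinks the differences of dim genes. A gene counts as expressed when its mean on that scale reaches 7.06, and it is represented by its brightest probe set unless stated. With 1 array per group, a difference between 2 arrays has no replicate check. Diabetes was therefore tested in limma over both surgery arms together, and uninephrectomy over both diabetes states, with 1 residual degree of freedom per gene, and the words rose and fell are kept for genes with a Benjamini-Hochberg adjusted p below 0.05 over all 11206 genes. That fit borrows its standard errors from genes of similar brightness (57.9 prior degrees of freedom), and without this trend 0 of 11206 genes pass for diabetes, against 907 at an unadjusted p below 0.05.

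In diabetic kidneys 3 of the 38 members rose, namely Angptl4, Pdk4 and Acot2, and 0 fell. Over all expressed genes 1.47% rose and 0.732% fell. On the same arrays 1 member, Angptl4, was at least 2-fold higher in diabetic than in nondiabetic uninephrectomised mice. This is 2.63% of members, near the 2.14% of all expressed genes. In sham mice 2 members, Angptl4 and Pdk4, were at least 2-fold higher, 5.26% of members beside 0.794% of all expressed genes. The number at least 2-fold lower was 0 in both arms, against 1.04% and 0.446% of all expressed genes. Most members thus differed by less than 2-fold, and fewer cells of a type and less RNA per cell cannot be told apart in whole kidney.

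**Figure D1:**
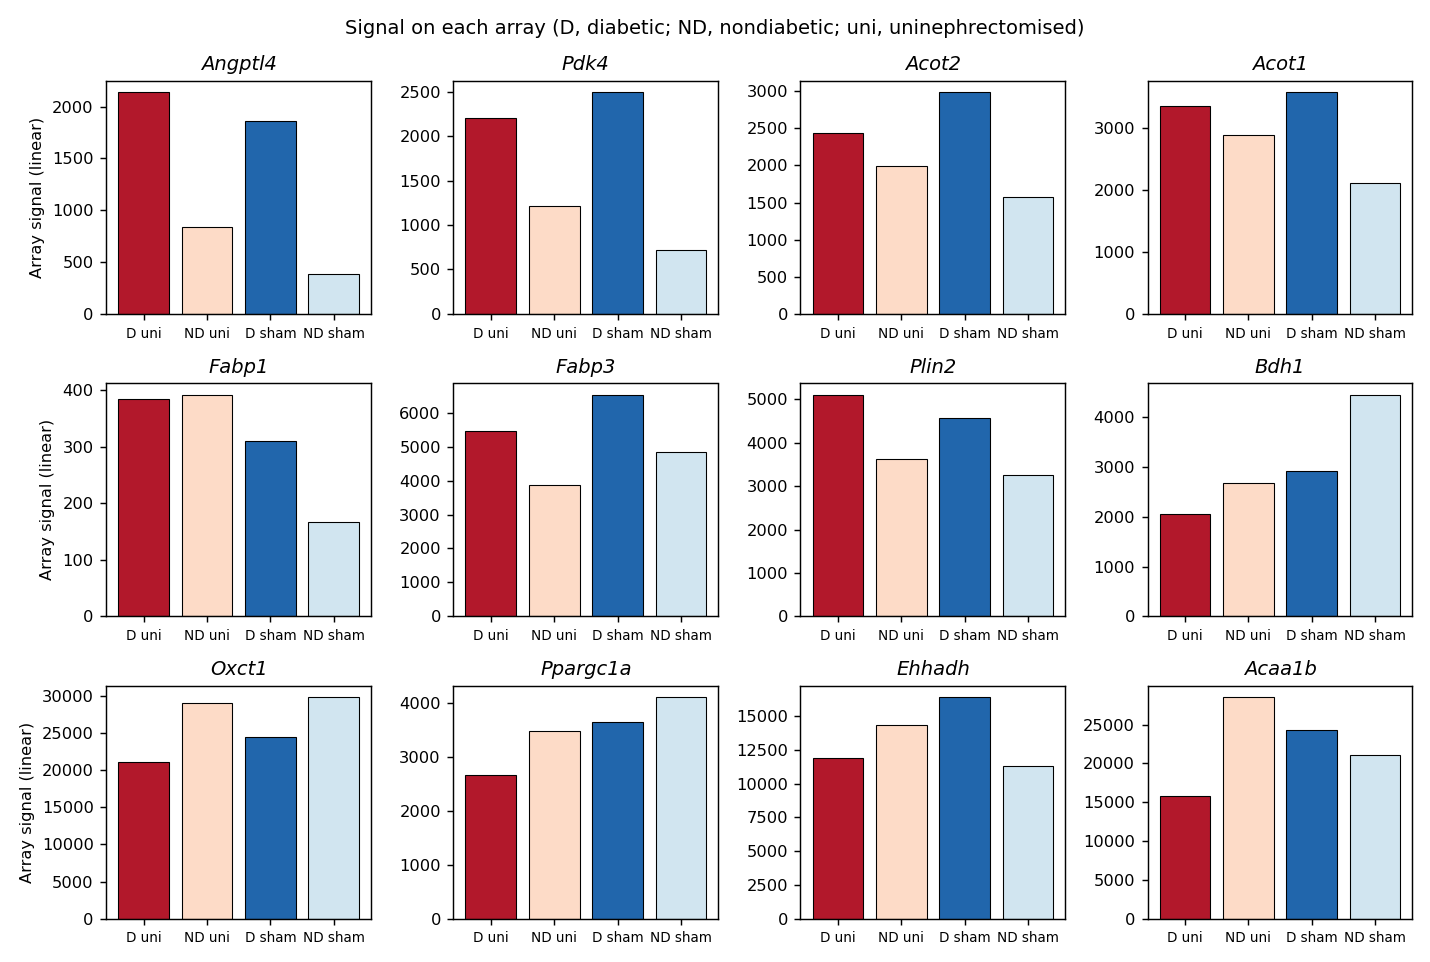
Linear array signal of 12 members (y axes, each from 0) on the 4 arrays, 1 bar per array of pooled RNA, with diabetic (D) beside nondiabetic (ND) mice after uninephrectomy (uni) and after sham surgery. Angptl4 (lowest diabetic signal 1858, highest nondiabetic 839) and Pdk4 (2201 and 1212) do not overlap between diabetic and nondiabetic arrays, while Bdh1, Oxct1 and Ppargc1a are lower in diabetic than in nondiabetic mice in each pair.

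Angptl4 encodes a secreted inhibitor of lipoprotein lipase and is a target of PPAR receptors. Its signals were 2139 in diabetic and 839 in nondiabetic uninephrectomised mice, and 1858 in diabetic and 389 in nondiabetic sham mice. Both diabetic arrays lay above both nondiabetic arrays. The share of all expressed genes that separate in this way was not counted, so such separation is description only, here and below. The log2 difference was 1.32 in uninephrectomised and 2.18 in sham mice, and the mean of 1.75 ± 0.18 (limma SE, 4 arrays) had an adjusted p of 3.9e-10. The second Angptl4 probe set was below the filter on every array, with signals between 9.9 and 23.8, and averaging both probe sets gave a mean difference of 0.77 (limma adjusted p = 0.373).

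Pdk4 encodes the kinase that switches off pyruvate dehydrogenase and so spares glucose while fat is burned. It had 2201 in diabetic and 1212 in nondiabetic uninephrectomised mice, and 2496 in diabetic and 716 in nondiabetic sham mice, again without overlap between diabetic and nondiabetic arrays. The differences were 0.85 and 1.76 on the log2 scale, with a mean of 1.31 ± 0.17 (limma SE, adjusted p = 3.05e-07). In both genes the difference with diabetes was smaller after uninephrectomy. The nondiabetic uninephrectomy array stood above the nondiabetic sham array, by 1.06 for Angptl4 and 0.74 for Pdk4. Between the diabetic arrays uninephrectomy differed from sham by 0.20 for Angptl4 and by -0.18 for Pdk4.

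Among the other PPAR-responsive genes, Plin2, which coats lipid droplets, had 5113 in diabetic and 3636 in nondiabetic uninephrectomised mice, and 4573 in diabetic and 3252 in nondiabetic sham mice. The difference was 0.49 in each arm, without overlap of the diabetic and nondiabetic arrays, and its mean of 0.49 ± 0.15 missed the threshold (limma adjusted p = 0.08). Plin5, a droplet protein that tethers droplets to mitochondria, was dim, at 129 in diabetic and 209 in nondiabetic uninephrectomised mice, and 261 in diabetic and 230 in nondiabetic sham mice. Vnn1, a pantetheinase that releases the coenzyme A precursor pantothenate, differed by 0.06 and 0.33 with diabetes, and both of its probe sets were positive in both arms.

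Most adipocyte markers were also higher with diabetes, and adipocytes express Angptl4, Pdk4, Cd36 and Plin2. Of 13 listed adipocyte markers 10 had a probe set and 7 were expressed, with Cidec, Lep and Pparg below the filter. The summed signal of the 10 was 13839 in diabetic and 5822 in nondiabetic uninephrectomised mice, and 27336 in diabetic and 15812 in nondiabetic sham mice. The median of the 7 differed by 0.56 in uninephrectomised and 0.74 in sham mice with diabetes, 6 and 5 of them were above 0, and 3 rose (Adipoq, Fabp4 and Car3). Thrsp was at least 2-fold lower in sham mice, at -1.09. With uninephrectomy the median of the 7 was -1.07 in diabetic and -0.70 in nondiabetic mice, and 3 fell (Adipoq, Car3 and Thrsp, with log2 differences of -2.66, -2.45 and -1.75), while Fabp4, a bright marker, differed by -0.31 (limma adjusted p = 0.95). On the same arrays the mean uninephrectomy difference was 0.63 for Angptl4 and 0.28 for Pdk4. The part of adipocyte RNA in the diabetes differences was not tested.

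Acot2 and Acot1 encode the mitochondrial and the cytosolic thioesterase that free fatty acids from coenzyme A, and they lie side by side in the genome. Acot2 had 2439 in diabetic and 1989.6 in nondiabetic uninephrectomised mice, and 2989 in diabetic and 1581 in nondiabetic sham mice. Its differences of 0.29 and 0.91 gave a mean of 0.60 ± 0.16 (limma SE, adjusted p = 0.023), and the call was lost in 5 of 10 alternative settings, where the adjusted p reached 0.474. A second Acot2 probe set differed by 0.79 and 0.69. Acot1 had 3353 in diabetic and 2895 in nondiabetic uninephrectomised mice, and 3579.5 in diabetic and 2117 in nondiabetic sham mice, with a mean difference of 0.48 ± 0.16 that missed the threshold (limma adjusted p = 0.11). The probe set shared by both genes differed by -0.01 in uninephrectomised and 0.53 in sham mice, so the 3 probe sets of Acot1 and Acot2 alone were all positive in both arms and the shared set was below 0 in uninephrectomised mice.

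**Figure D2:**
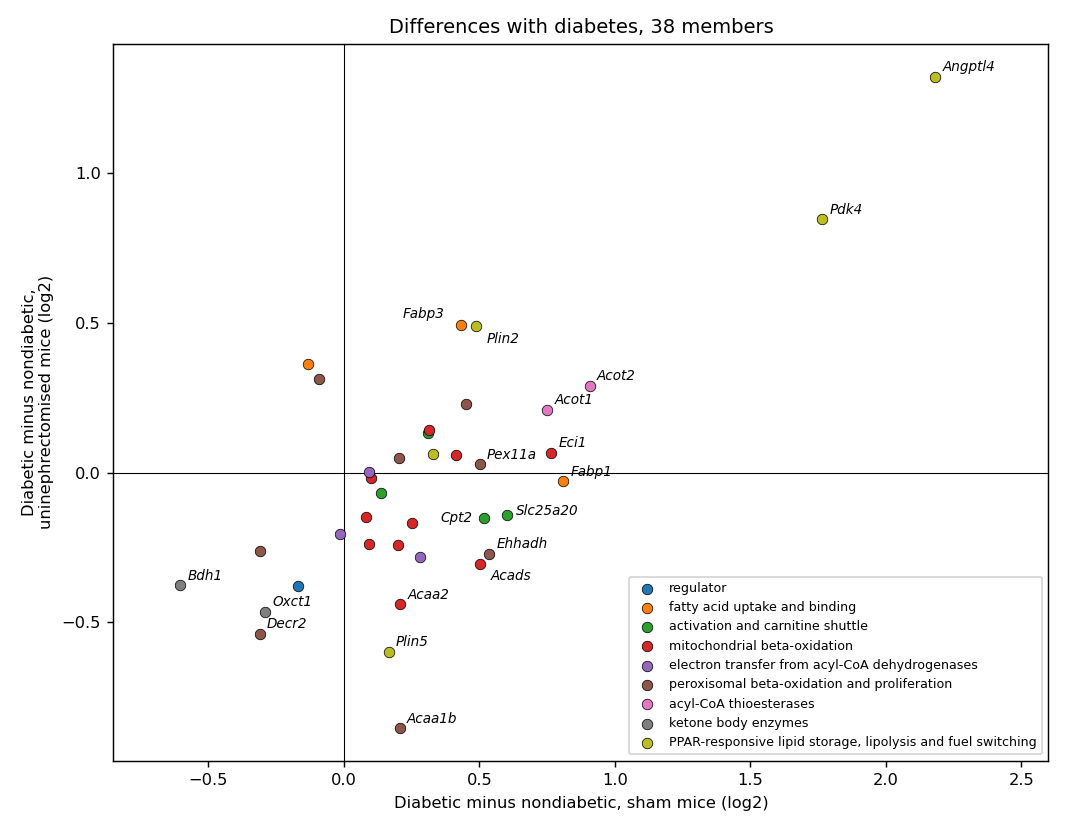
Each point is a member, with its diabetic minus nondiabetic log2 difference in sham mice on the x axis and in uninephrectomised mice on the y axis, coloured by role. Angptl4 and Pdk4 lie at the upper right, 15 members lie right of 0 and below 0, and 2 lie left of 0 and above 0.

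Over all 38 members the diabetes difference had a median of -0.05 in uninephrectomised and 0.27 in sham mice, beside -0.01 and 0.01 over all expressed genes. In sham mice 30 of 38 members were above 0 (51.6% of all expressed genes were), and in uninephrectomised mice 17 of 38 (48.6% of all). By sign, 15 members were higher in diabetic sham but lower in diabetic uninephrectomised mice than in their nondiabetic counterparts, a sign pattern that 25.3% of all expressed genes had. The opposite order was seen for 2 members, Cd36 and Crot, against 22.3% of all. With at least 1.2-fold in each arm, 3 members, Acads, Etfb and Ehhadh, were higher in sham and lower in uninephrectomised mice (4.01% of all) and 0 the other way (2.87% of all). A further 15 members were higher in both arms (26.3% of all) and 6 were lower in both (26% of all). The 2 arms share no array, but the difference between them rests on 1 array each and was not tested.

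Of the 4 carnitine shuttle genes, 3 (Cpt1a, Cpt2 and Slc25a20) had this order of signs by their brightest probe set, and Crat was higher with diabetes in both arms. Cpt2, which rebuilds acyl-coenzyme A inside mitochondria, had 3656 in diabetic and 4067 in nondiabetic uninephrectomised mice, and 4812 in diabetic and 3358 in nondiabetic sham mice. Its second, dim probe set was lower with diabetes in both arms (-0.59 and -0.64). Slc25a20, the carrier that moves acylcarnitines across the inner membrane, had 4101 in diabetic and 4527 in nondiabetic uninephrectomised mice, and 4768 in diabetic and 3129 in nondiabetic sham mice. Both Slc25a20 probe sets agreed in sign, at -0.14 and -0.31 in uninephrectomised and at 0.60 and 0.45 in sham mice. The nondiabetic sham array was thus the lowest of the 4 for the main probe sets of both genes.

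Cpt1a, the entry enzyme of the shuttle that malonyl-coenzyme A inhibits, had nearly level signals, with 5231 in diabetic and 5490.5 in nondiabetic uninephrectomised mice, and 6059 in diabetic and 5504 in nondiabetic sham mice. Its 3 probe sets had mixed signs in all 4 comparisons, and none of its differences passed. Crat, which moves acetyl groups between carnitine and coenzyme A, had 1118 in diabetic and 1018 in nondiabetic uninephrectomised mice, and 1459.8 in diabetic and 1171 in nondiabetic sham mice. Its differences with diabetes were 0.13 and 0.31, and its 3 probe sets ran from -0.00 to 0.21 and from 0.07 to 0.33.

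The 10 mitochondrial beta-oxidation genes included the brightest members, with signals between 1404 and 39242. All 10 were above 0 in sham mice, with differences from 0.08 to 0.77 and a median of 0.23, and 3 of 10 were above 0 in uninephrectomised mice, with differences from -0.44 to 0.14 and a median of -0.16. Acadm, the medium-chain dehydrogenase and the brightest gene of the list, had 31142 in diabetic and 34519.8 in nondiabetic uninephrectomised mice, and 39242 in diabetic and 37086 in nondiabetic sham mice. Acads, the short-chain dehydrogenase, had 1404 in diabetic and 1742 in nondiabetic uninephrectomised mice, and 2116 in diabetic and 1485 in nondiabetic sham mice. For both, the diabetic sham array was the highest and the diabetic uninephrectomy array the lowest of the 4.

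Acaa2, the mitochondrial thiolase of the last step, gave the same split in several probe sets. It had 3269 in diabetic and 4444 in nondiabetic uninephrectomised mice, and 4339 in diabetic and 3750.3 in nondiabetic sham mice. All 3 of its probe sets were lower with diabetes in uninephrectomised mice (from -0.71 to -0.33) and higher in sham mice (from 0.13 to 0.48). Hadh, the short-chain hydroxyacyl-coenzyme A dehydrogenase, had 27820.5 in diabetic and 32901 in nondiabetic uninephrectomised mice, and 33930.1 in diabetic and 29512 in nondiabetic sham mice, and likewise had 3 of 3 probe sets below 0 (from -0.43 to -0.12) and 3 of 3 above 0 (from 0.20 to 0.37). Probe sets of a gene read the same 4 RNA pools, so their agreement bears on the measurement and not on the mice.

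Hadha and Hadhb encode the subunits of the trifunctional protein, which works on long chains. Hadha differed by -0.02 in uninephrectomised and 0.10 in sham mice, and Hadhb by -0.24 and 0.09. Hadhb had 8134 in diabetic and 9593 in nondiabetic uninephrectomised mice, and 10701 in diabetic and 10039 in nondiabetic sham mice. A further, dim Hadhb probe set had 151 in diabetic and 131 in nondiabetic uninephrectomised mice, and 228 in diabetic and 94.1 in nondiabetic sham mice, and so was on the other side of 0 from its partners in uninephrectomised mice. Acadvl and Acadl, the dehydrogenases of very long and long chains, differed by -0.17 and 0.14 in uninephrectomised and by 0.25 and 0.31 in sham mice. Eci1 and Decr1 handle double bonds of unsaturated fatty acids. Decr1 had 8651 in diabetic and 8296 in nondiabetic uninephrectomised mice, and 8868 in diabetic and 6641 in nondiabetic sham mice, and its probe sets differed by 0.06 and -0.04 in uninephrectomised and by 0.42 and 0.30 in sham mice. Eci1 had 5944 in diabetic and 5674 in nondiabetic uninephrectomised mice, and 6888 in diabetic and 4039 in nondiabetic sham mice, and its mean of 0.42 ± 0.16 missed the threshold (limma adjusted p = 0.25).

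Of the electron transfer genes, Etfb had 12128 in diabetic and 14769 in nondiabetic uninephrectomised mice, and 15317 in diabetic and 12595 in nondiabetic sham mice, differences of -0.28 and 0.28. Its partner subunit Etfa differed by -0.21 and -0.01, and Etfdh, which hands the electrons to ubiquinone, by 0.00 and 0.09. The subunits of the flavoprotein therefore did not share a sign in sham mice.

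**Figure D3:**
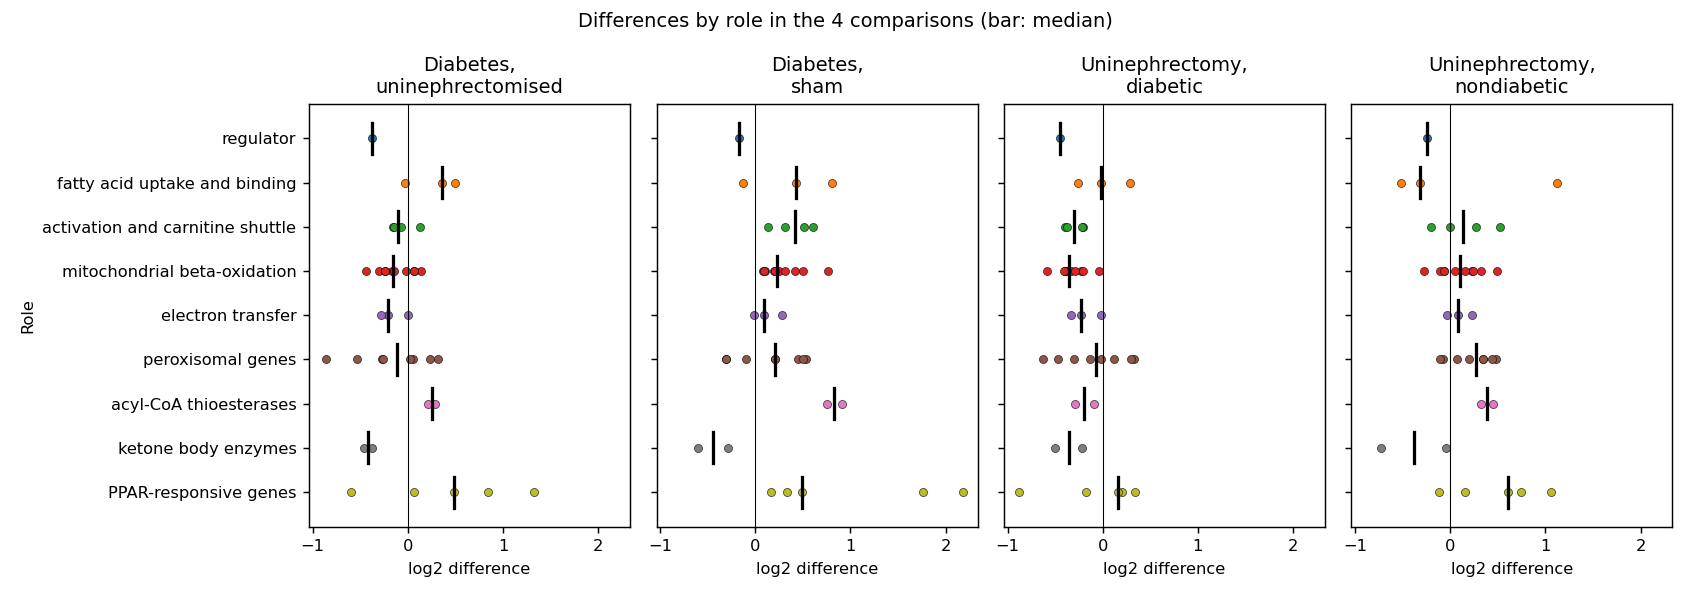
Log2 differences of the 38 members (points) by role in the 4 comparisons, with a black bar at the median of each role, on a common x axis. In uninephrectomised mice 3 of 10 mitochondrial beta-oxidation genes lie right of 0 with diabetes, and in sham mice 10 of 10. By their brightest probe sets the ketone body enzymes lie left of 0 in all 4 panels. With uninephrectomy the brightest Oxct1 probe set differed by -0.21 in diabetic and -0.04 in nondiabetic mice. Another Oxct1 probe set, not drawn here, differed by 0.26 and 0.04.

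Peroxisomal members were less uniform. Ehhadh, the bifunctional enzyme of peroxisomes, had 11849 in diabetic and 14304 in nondiabetic uninephrectomised mice, and 16390.5 in diabetic and 11295 in nondiabetic sham mice, differences of -0.27 and 0.54. Acaa1b, a peroxisomal thiolase, had 15778 in diabetic and 28542 in nondiabetic uninephrectomised mice, and 24365 in diabetic and 21109.9 in nondiabetic sham mice, differences of -0.85 and 0.21. This was the lowest value of any member in uninephrectomised mice. The 2 probe sets shared by Acaa1a and Acaa1b gave -0.74 and -0.89 there, and 0.12 and 0.22 in sham mice, close to Acaa1b.

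Acaa1a by itself was read by 2 dim probe sets. The brighter had 596 in diabetic and 720.3 in nondiabetic uninephrectomised mice, and 545 in diabetic and 683 in nondiabetic sham mice. They differed by -0.26 and -0.16 in uninephrectomised mice and had opposite signs in sham mice (-0.31 and 0.32). Array suffixes mark both as probe sets that may bind other transcripts. The thiolase paralogs are thus not cleanly separated here. The brightest probe sets of Hadh and Hsd17b4 carry the same suffix. So do further probe sets of Hadh, Hadhb, Cpt1a, Cpt2, Crat, Oxct1 and Ppargc1a.

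Pex11a, which drives peroxisome division, was higher with diabetes in both arms by both probe sets, by 0.03 and 0.31 in uninephrectomised and by 0.50 and 0.68 in sham mice. Eci2, which shifts double bonds, had 4831 in diabetic and 4114 in nondiabetic uninephrectomised mice, and 4885 in diabetic and 3571 in nondiabetic sham mice, differences of 0.23 and 0.45. Decr2, the peroxisomal dienoyl-coenzyme A reductase, had 673 in diabetic and 989 in nondiabetic uninephrectomised mice, and 838 in diabetic and 1046 in nondiabetic sham mice. Both diabetic arrays of Decr2 lay below both nondiabetic arrays, and its mean of -0.42 ± 0.18 missed the threshold (limma adjusted p = 0.34).

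Hsd17b4, the D-bifunctional protein, had 7095 in diabetic and 6854 in nondiabetic uninephrectomised mice, and 5654 in diabetic and 4902 in nondiabetic sham mice by its brightest probe set. Its 2 probe sets were of opposite sign in uninephrectomised mice (0.05 and -0.36) and of the same sign in sham mice (0.20 and 0.06). Crot, which makes carnitine esters of medium-chain products so that they can leave the peroxisome, had 6427 in diabetic and 5165 in nondiabetic uninephrectomised mice, and 5213 in diabetic and 5563 in nondiabetic sham mice. The diabetic uninephrectomy array was the highest for Crot.

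Among uptake and binding genes, Fabp3, the heart-type fatty acid binding protein, had 5458 in diabetic and 3871 in nondiabetic uninephrectomised mice, and 6533 in diabetic and 4838 in nondiabetic sham mice. Both diabetic arrays were above both nondiabetic arrays, and the mean of 0.46 ± 0.15 missed the threshold (limma adjusted p = 0.12). Cd36, the membrane receptor for long-chain fatty acids, had 2429.8 in diabetic and 1882 in nondiabetic uninephrectomised mice, and 2458 in diabetic and 2695 in nondiabetic sham mice. It differed by 0.36 and -0.13 by its brightest probe set, and its 3 probe sets ran from -0.16 to 0.36 in uninephrectomised mice and from -0.27 to -0.07 in sham mice. Fabp1, the liver-type binding protein whose promoter is shown above, was dim, with 384 in diabetic and 392 in nondiabetic uninephrectomised mice, and 311 in diabetic and 166 in nondiabetic sham mice. Its second probe set had 210.0 in diabetic and 445 in nondiabetic uninephrectomised mice, and 242 in diabetic and 195 in nondiabetic sham mice. The probe sets of Fabp1 thus differed by -0.03 and -0.996 in the same comparison.

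Ketone body enzymes and Ppargc1a were lower with diabetes in both arms by every probe set, though none passed for diabetes. Bdh1, which interconverts the ketone bodies, had 2062 in diabetic and 2686 in nondiabetic uninephrectomised mice, and 2922 in diabetic and 4452 in nondiabetic sham mice, and its mean of -0.49 ± 0.15 had a limma adjusted p of 0.078. Oxct1, which activates acetoacetate for burning, had 21018 in diabetic and 29008 in nondiabetic uninephrectomised mice, and 24376 in diabetic and 29811 in nondiabetic sham mice. Both diabetic arrays of Oxct1 lay below both nondiabetic arrays, and its 4 probe sets ran from -0.71 to -0.19 and from -0.41 to -0.09. Ppargc1a had 2666 in diabetic and 3471 in nondiabetic uninephrectomised mice, and 3649.6 in diabetic and 4107 in nondiabetic sham mice, and its 5 probe sets ran from -0.50 to -0.11 and from -0.63 to -0.13. The mean was -0.38 ± 0.21 for Oxct1 (limma adjusted p = 0.63) and -0.27 ± 0.15 for Ppargc1a (limma adjusted p = 0.63).

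**Figure D4:**
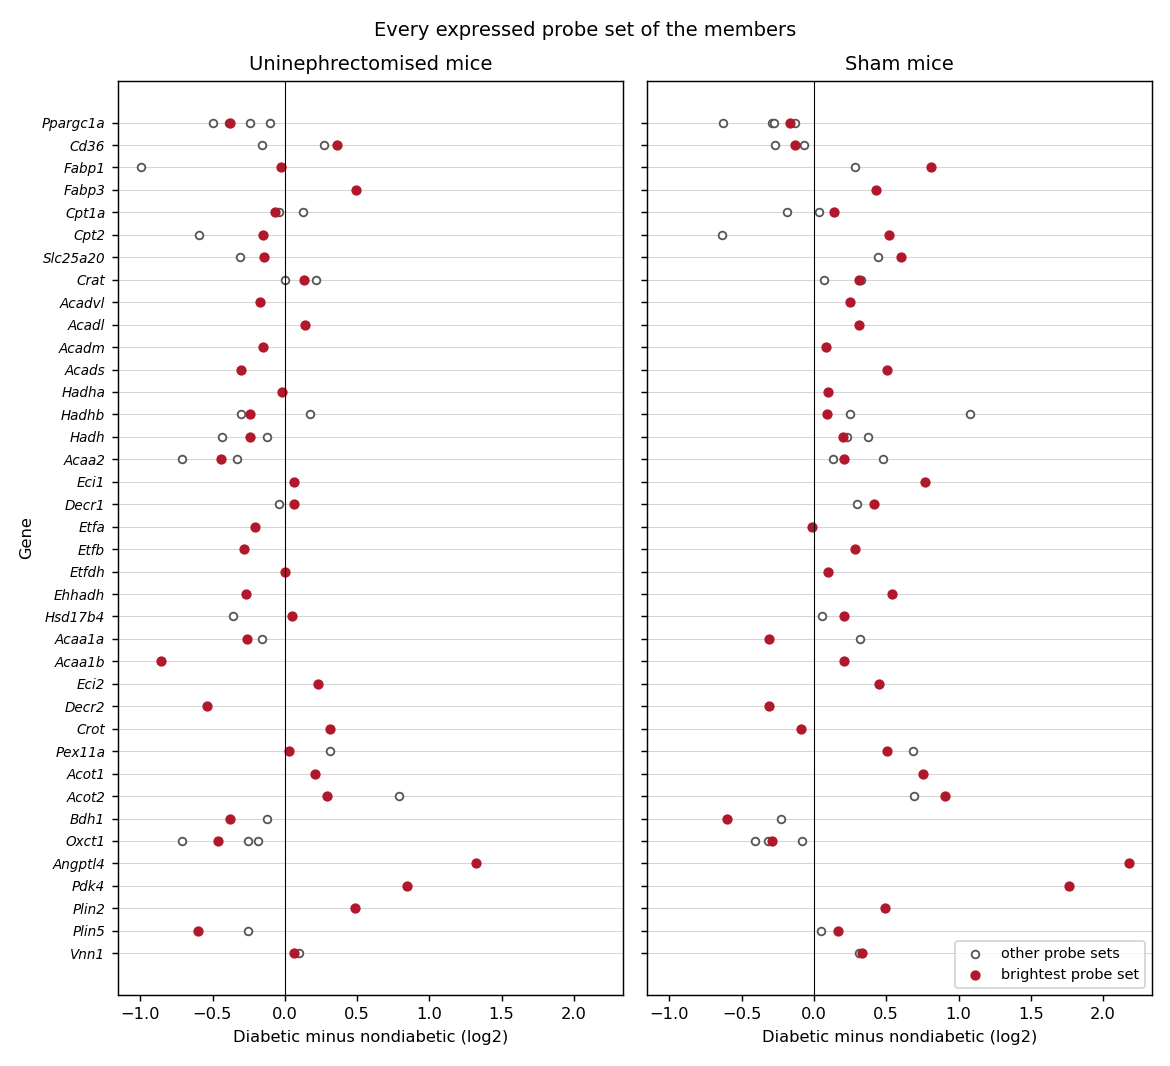
Diabetic minus nondiabetic log2 difference (x axis, common to both panels) of all 68 expressed probe sets of the 38 members (rows), in uninephrectomised mice on the left and in sham mice on the right, with the brightest probe set of each gene filled. Angptl4 and Pdk4 stand right of all others in sham mice, and all probe sets of Ppargc1a, Bdh1 and Oxct1 lie left of 0 in both panels.

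Several probe sets were expressed for 19 members, 49 probe sets in all. Those of a gene had the same sign of the diabetes difference for 13 of 19 genes in uninephrectomised and for 16 of 19 in sham mice. The SD between probe sets of the same gene was 0.23 and 0.27 on the log2 scale. With uninephrectomy the sign was the same for 10 of 19 genes in diabetic and 12 of 19 in nondiabetic mice, and the SD was 0.31 and 0.21. A difference of a single member below these SDs is within the spread between probe sets.

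Uninephrectomy was compared within diabetic and within nondiabetic mice on the same 4 arrays, so these comparisons share their arrays with the ones above. Bdh1 was the 1 member to fall, by -0.61 ± 0.15 on average (log2, limma SE, adjusted p = 0.0351), made of -0.50 in diabetic and -0.72 in nondiabetic mice, and 0 rose. Over all expressed genes 0.178% fell and 0.33% rose. The second Bdh1 probe set differed by -0.34 and -0.45, and the call was lost in 5 of 10 alternative settings, where the adjusted p reached 0.79. The Bdh1 signal was thus highest on the nondiabetic sham array and lowest on the diabetic uninephrectomy array.

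The number of members at least 2-fold higher after uninephrectomy was 0 in diabetic and 2 in nondiabetic mice, Fabp1 and Angptl4, where 1.48% and 0.678% of all expressed genes were. At least 2-fold lower were 0 members in either, against 0.669% and 0.518% of all expressed genes. Fabp1 differed by 0.28 in diabetic and 1.12 in nondiabetic mice, and its second probe set by -0.18 and 1.09. Both probe sets thus passed 2-fold in nondiabetic mice and neither did in diabetic mice. Angptl4 differed by 0.20 and 1.06 (mean 0.63 ± 0.18, limma adjusted p = 0.1), and Pdk4 by -0.18 and 0.74.

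The member median with uninephrectomy was -0.23 in diabetic and 0.16 in nondiabetic mice, beside -0.02 and 0.00 over all expressed genes, and 7 and 23 of 38 members were above 0, beside 47.6% and 50.5% of all. In the same comparisons 18 hybridisation control probe sets, which read added transcripts, differed by -0.43 and 0.29. The 24 labelling control probe sets differed by -0.27 and 0.03. The part of this in the members' differences was not tested. With at least 1.2-fold in each, 4 members (Cpt2, Ehhadh, Acaa1b and Acot2) were lower in diabetic and higher in nondiabetic mice (4.64% of all) and 0 the other way (3.06% of all). All 10 mitochondrial beta-oxidation genes were below 0 in diabetic mice (from -0.58 to -0.04), and 6 of 10 were above 0 in nondiabetic mice. Vnn1 differed by 0.34 in diabetic and 0.61 in nondiabetic mice, with both probe sets positive in both (mean 0.48 ± 0.15, limma adjusted p = 0.21). Hsd17b4 differed by 0.33 and 0.48, but its second probe set by -0.21 and 0.20. Hadh gave opposite signs in diabetic mice too, at -0.29 by its brightest and 0.54 by its dimmest probe set.

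The sign of the small differences depends on how the arrays are scaled. Centring each array on its own median moved the median of all expressed genes by 0.12 in uninephrectomised and by -0.09 in sham mice for diabetes, and by 0.08 in diabetic and -0.13 in nondiabetic mice for uninephrectomy. The member median for diabetes then became 0.07 in uninephrectomised and 0.18 in sham mice. Relative to all expressed genes it was -0.04 and 0.26 under either scaling, which is fixed because centring shifts every gene of an array by the same amount. Quantile normalisation gave -0.02 and 0.22.

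Other values also differed between the arms, some in the order of the members and some in the opposite order. The 18 hybridisation control probe sets, which read transcripts added to the samples, had a log2 difference with diabetes of -0.42 in uninephrectomised and of 0.31 in sham mice. The 24 labelling control probe sets differed by -0.18 and 0.11. The 3 probe sets for 18S ribosomal RNA differed by 0.89 and 0.40. Proximal tubule markers, of which 17 of 18 with a probe set were expressed, had medians of -0.38 and 0.11 and summed signals of 235866 in diabetic and 311436 in nondiabetic uninephrectomised mice, and of 298573 in diabetic and 285397 in nondiabetic sham mice. Medians of other kidney cell lists were also lower in the uninephrectomised arm. They were -0.42 and -0.11 for podocyte markers and -0.30 and -0.06 for loop of Henle and distal tubule markers. Collecting duct markers had -0.24 and -0.01, and endothelial markers -0.19 and 0.01. Macrophage markers, with 8 of 10 expressed, had medians of 0.74 and 0.08, and tubular injury markers, with 9 of 9, of 2.04 and 0.52. Of 10 striated muscle markers 1 was expressed, and of 6 brown adipocyte markers 2 were, Cox7a1 and Cox8b, while Ucp1, Cidea, Dio2 and Elovl3 were below the filter. Cox8b differed by 0.48 in uninephrectomised and -0.34 in sham mice with diabetes, and by -0.42 in diabetic and -1.23 in nondiabetic mice with uninephrectomy. The part of these in the members' differences was not tested.

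Other genes of the pathway were taken from 6 lists of 116 genes, of which 106 had a probe set and 92 were expressed. In limma 5 of the 92 rose and 2 fell with diabetes, beside 1.47% and 0.732% of all expressed genes. For uninephrectomy 0 passed, where 0.33% of all rose and 0.178% fell. The median of the 92 with diabetes was -0.26 in uninephrectomised and 0.11 in sham mice. Above 0 were 24 and 57 of 92, beside 48.6% and 51.6% of all expressed genes. Higher in diabetic sham but lower in diabetic uninephrectomised mice were 37 of 92, beside the 25.3% of all expressed genes given above. By list this ran from 0 of 4 other ketone body genes to 12 of 21 other peroxisomal genes.

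The 5 that rose were of different kinds. Cyp4a12a, a fatty acid omega-hydroxylase, had 818 in diabetic and 368 in nondiabetic uninephrectomised mice, and 643 in diabetic and 169.9 in nondiabetic sham mice, and rose by a mean log2 difference of 1.43. Fabp4, the adipocyte binding protein and a marker of those cells, rose by 1.05, and Fabp5, the epidermal form, rose by 0.53 at a limma adjusted p of 0.0499, just under the threshold. Slc16a1, the monocarboxylate carrier MCT1 that also moves ketone bodies, had 2855 in diabetic and 2304 in nondiabetic uninephrectomised mice, and 2326 in diabetic and 1284 in nondiabetic sham mice, a rise of 0.58 at a limma adjusted p of 0.029. Nudt7, a peroxisomal coenzyme A diphosphatase, rose by 0.65, made of 1.01 and 0.28.

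The 2 that fell were Acsl3 and Cyp4b1. Acsl3, an acyl-coenzyme A synthetase linked to lipid droplets, had 397 in diabetic and 727 in nondiabetic uninephrectomised mice, and 421 in diabetic and 696 in nondiabetic sham mice, and fell by 0.76. Cyp4b1, a relative of the omega-hydroxylases, fell by 0.85. Among the brightest of these lists, the peroxisomal genes Hao2 and Scp2 and the uptake gene Slc27a2 differed by -0.44, -0.31 and -0.38 in uninephrectomised and by -0.10, 0.10 and 0.11 in sham mice.

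**Figure D5:**
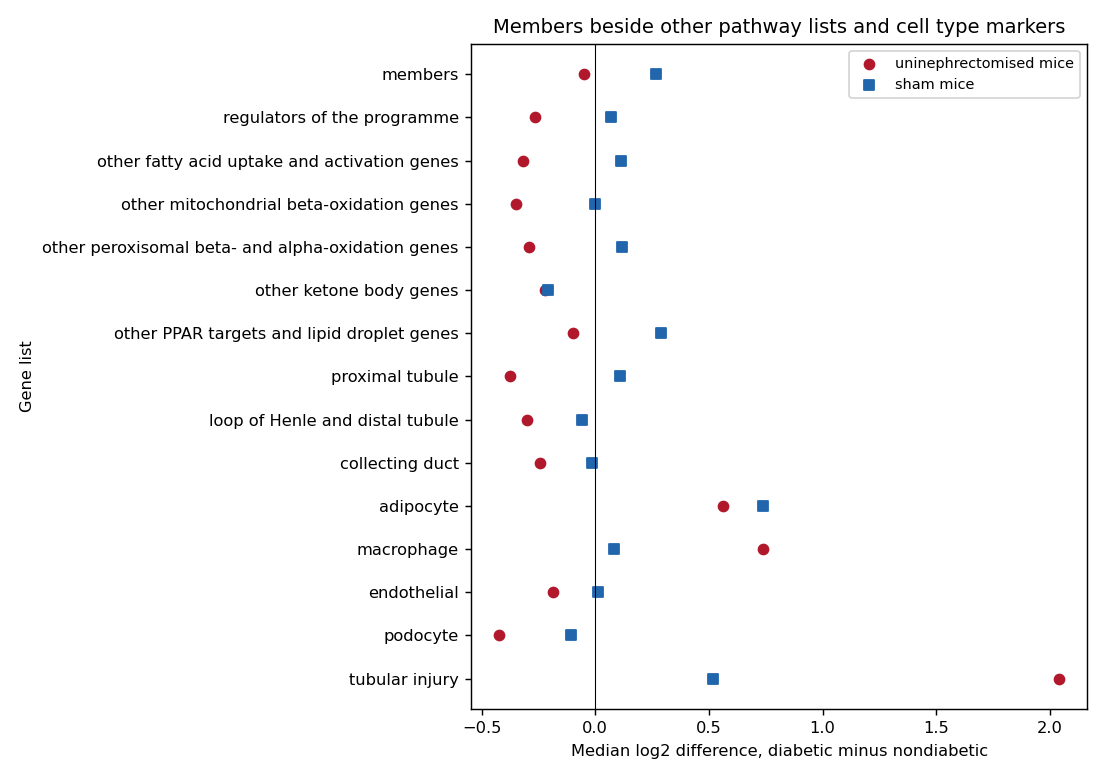
Median diabetic minus nondiabetic log2 difference (x axis) of the 38 members, of 6 lists of other pathway genes and of cell type marker lists with at least 4 expressed genes, in uninephrectomised mice (circles) and sham mice (squares). The members lie at -0.05 and 0.27, the proximal tubule markers at -0.38 and 0.11 and the adipocyte markers at 0.56 and 0.74. Podocyte markers lie at -0.42 and -0.11, and loop of Henle and distal tubule markers at -0.30 and -0.06.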

How the data were processed

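The authors deposited 1 intensity per probe set and array, as linear array signal intensity, for RNA that was pooled from 4 mice per group and labelled with biotin (100 ng per pool), per the labels' protocols. The array software is not given in the sources used here. A mean intensity without the highest and lowest 2% was 500.003 on every array, so the deposited intensities had been scaled. Platform annotation gave 1 symbol for 34945 of 45037 probe sets that are not controls. Symbols were updated through Entrez numbers in RefSeq (GRCm38.p6), which changed 0.

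Values were set as log2(signal + 26.4), the offset being the 20th percentile, and genes were kept at a mean of 7.06 or more, the median over probe sets. An additive model for diabetes and surgery was fitted to all expressed genes in R 4.3.3 by limma 3.58.1, with an intensity trend in eBayes and 57.9 prior degrees of freedom, and adjusted by Benjamini-Hochberg. The step was tested on simulated data. Pearson correlations between arrays lay between 0.969 and 0.983 across expressed genes, which are not independent replicates.

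The members, the other lists and the tests were chosen with earlier results of these data known. Named in full by rule are members that pass, that differ at least 2-fold between 2 compared arrays or whose expressed probe sets disagree in sign. Other members are given as examples of their role, more than the 2 to 4 brightest that the rule set. From the other pathway lists those that pass and some of the brightest are named. Alternatives were quantile normalisation, median centring, offsets of 1 and of 72.5 (the 40th percentile), no and a stricter expression filter (75th percentile), averaging the probe sets of each gene, counting them singly, limma without a trend, an adjusted p below 0.1 and a 1.5-fold threshold.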

Additional observations from a re-analysis of the deposited data

Results flagged for a closer look

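Effects of opposite sign in the 2 arms of a contrast were looked for among the members, at a size of at least 1.2-fold in each arm for single genes. With 1 array per group these differences were not tested. The member median with diabetes was -0.05 in uninephrectomised and 0.27 in sham mice, a difference of -0.32, and with uninephrectomy it was -0.23 in diabetic and 0.16 in nondiabetic mice, a difference of -0.39. For diabetes, Acads, Etfb and Ehhadh were lower in diabetic uninephrectomised and higher in diabetic sham mice, and their arms differed by -0.81, -0.57 and -0.81. This is 3 of 38 members, beside 4.01% of all expressed genes, and each of the 3 has 1 probe set.

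For uninephrectomy, Cpt2, Ehhadh, Acaa1b and Acot2 were lower in diabetic and higher in nondiabetic mice, with arms that differed by -0.67, -0.81, -1.06 and -0.62. This is 4 of 38 members, beside 4.64% of all expressed genes. These values are from the brightest probe set. Cpt2 and Acot2 have a second probe set of their own, and neither repeated the pattern. That of Cpt2 differed by 0.63 in diabetic and 0.59 in nondiabetic mice, and that of Acot2 by -0.10 and -0.20. Ehhadh and Acaa1b have 1 probe set of their own each, so no further set of their own could be checked. Probe sets shared by Acaa1a and Acaa1b differed by -0.50 and -0.58 in diabetic and by 0.37 and 0.52 in nondiabetic mice. The probe set shared by Acot1 and Acot2 differed by -0.29 in diabetic and 0.26 in nondiabetic mice. Such sets do not separate the paralogs. The difference between arms is the same number for both contrasts, as for Ehhadh, because both are made of the same 4 arrays.

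Outside the gene probe sets, the 3 control probe sets for 18S ribosomal RNA had 1.88 times the signal in diabetic uninephrectomised as in nondiabetic sham mice.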

How the results depend on the processing

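With 1 array per group no replicate could be left out. No paired analysis was possible because each group has 1 array and the labels give no replicate numbers. The count of members that passed with diabetes (3) was 5 under quantile normalisation, 2 under median centring and with probe sets counted singly, where Acot2 was lost, 1 with no expression filter, 6 with the stricter filter, 0 with probe sets averaged per gene, 0 without a trend and 5 at an adjusted p below 0.1. The count for uninephrectomy (1) was 2 under quantile normalisation and with the stricter filter, and 0 under median centring, with no filter, with the mean of probe sets, with probe sets counted singly and without a trend. Over all genes, 247 passed with diabetes and 57 with uninephrectomy, against 0 and 4 without a trend (907 and 594 at an unadjusted p below 0.05), 3 and 1 with the mean of probe sets, 13 and 2 with no filter, 62 and 16 singly, 314 and 116 under quantile normalisation, and 88 and 9 under median centring. With 40th percentile offset 76 passed for uninephrectomy, and 81 with the stricter filter. Angptl4, Pdk4, Acot2 and Bdh1 kept their direction in 10 of 10 alternatives and stayed under 0.05 in 8, 7, 5 and 5 of them. The mean difference of Angptl4 was 0.77 with probe sets averaged per gene, against 1.75, as its other probe set is below the filter. Their adjusted p ranged from 1.21e-19 to 0.373, from 1.47e-12 to 0.214, from 0.00533 to 0.474 and from 0.00741 to 0.79.

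The count of members at least 2-fold different with diabetes in uninephrectomised mice (1) was 0 with the mean of probe sets and 4 at 1.5-fold, and that in sham mice (2) was 8 at 1.5-fold. With uninephrectomy in diabetic mice (0) it was 1 with an offset of 1, 1 with the mean of probe sets and 2 at 1.5-fold. In nondiabetic mice (2) it was 0 under median centring and with the 40th percentile offset, 1 with the stricter filter and with the mean of probe sets, and 5 at 1.5-fold. Member medians ranged from -0.15 to 0.07 and from 0.18 to 0.28 for diabetes in uninephrectomised and sham mice, and from -0.23 to -0.15 and from 0.03 to 0.23 for uninephrectomy in diabetic and nondiabetic mice. The count of members higher with diabetes in sham and lower in uninephrectomised mice (15) ranged from 11 to 18 with 1 value per gene. With the 68 probe sets counted singly, 19 members had at least 1 probe set in this order. These alternatives were added after seeing the data. The cause of these changes was not tested.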
